A study of Camelina sativa with 41 samples.

Results

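Described here are 200 genes of Camelina sativa, a hexaploid oilseed crop, whose transcripts were present in seeds at 5 days post-anthesis (DPA, counted from flower opening), much lower at 8 DPA and little changed at 11 DPA. They were chosen by the measured levels themselves. Counts were scaled to CPM (counts divided by the library total and expressed on a common scale) and averaged over the 3 replicates of an age, with 0.5 CPM added before ratios were taken. A gene was taken when its log2 change from 5 to 8 DPA was -2 or below and its log2 change from 8 to 11 DPA lay between -0.5 and 0.5, after the 100 most abundant genes had been set aside. These limits were met by 408 of the 89418 genes counted, and the 200 with the highest mean at 5 DPA were kept. The choice used every age, so the levels and all comparisons of ages below describe the members and test nothing about them.

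The seeds were wild type (WT) of the cultivar Suneson, grown in a greenhouse. Each of the ages, 5, 8 and 11 DPA, had 3 libraries labelled as biological replicates, from about 100 mg of seed apiece. The protocols name seedpods as the harvested material and seed as the source of the RNA. Whole seeds hold embryo, endosperm and seed coat, and in such bulk RNA a drop in the number of cells of a type cannot be told apart from a drop in RNA per cell. The series also holds binding profiles of 22 transcription factors, none of which was among the members or the other candidates.

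In seeds of the mustard family the endosperm first divides as free nuclei and only later forms cell walls, while the embryo passes from its first divisions through the globular and heart stages and the seed coat differentiates around both. Oil and storage protein are laid down after these steps. The files give gene IDs without names, and none of the IDs was found among the 98741 genes of the reference table, so no function is given for any member and the labelled tissue could not be checked against marker genes. For the same reason no promoter or protein is shown and the binding sites could not be placed beside the genes.

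Library totals ran from 38268473 to 46863553 counts, except for 5 DPA replicate 1, which had 15659011. For that replicate only the first of 2 sequencing runs was used. The column given for its second run held the same values as the second run of 5 DPA replicate 2. Set against first runs, that column had a chi-square per degree of freedom of 9.39 with replicate 1 and 1.34 with replicate 2, so it was counted with replicate 2. The floor that a count of 0 allows, 3 counts, was worth 0.192 CPM in 5 DPA replicate 1 and 0.0247 and 0.0224 CPM over the 3 libraries of 8 and of 11 DPA.

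The members together supplied a small share of the message at 5 DPA and far less afterwards. Their summed share of all counts averaged 0.413% ± 0.144 in 5 DPA seeds, 0.0488% ± 0.00875 in 8 DPA seeds and 0.0473% ± 0.00224 in 11 DPA seeds (SD over 3 libraries). By library it was 0.338%, 0.579% and 0.322% at 5 DPA, 0.0546%, 0.0531% and 0.0387% at 8 DPA, and 0.0487%, 0.0485% and 0.0447% at 11 DPA. The groups of 5 and 8 DPA did not overlap, and among the 5 DPA libraries replicate 2 stood above the others.

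**Figure D1:**
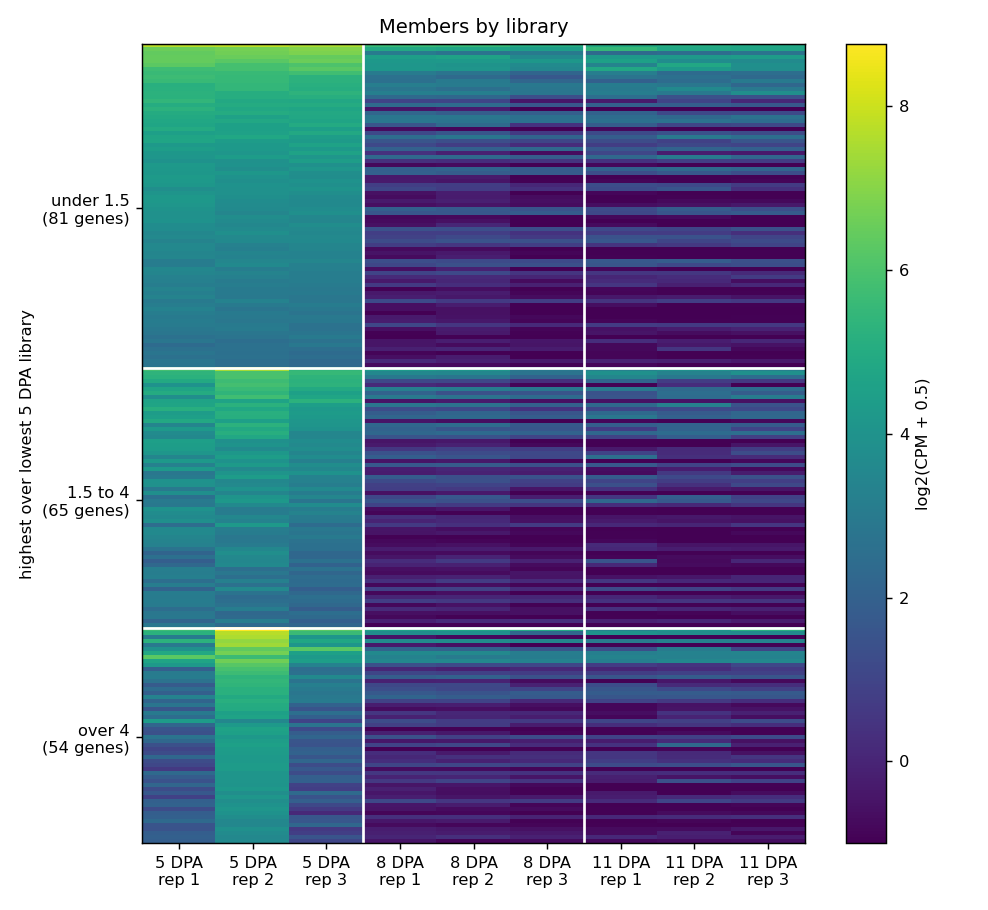
Each row is 1 of the 200 members and each column 1 of the 9 libraries, with colour giving log2(CPM + 0.5). Rows are grouped by the ratio of the highest to the lowest 5 DPA library (81 genes under 1.5, 65 from 1.5 to 4, 54 over 4) and ordered by 5 DPA mean within a group; the last block is bright in 5 DPA replicate 2 and dimmer in replicates 1 and 3.

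Levels at 5 DPA were mostly moderate. The members' means at that age ran from 5.38 to 205 CPM with a median of 11.5. Only 15 genes reached 50 CPM and 85 lay under 10 CPM, and the 10 most abundant held 27.4% of the members' counts at 5 DPA. The median level was 0.672 CPM in 8 DPA seeds and 0.683 CPM in 11 DPA seeds. The median log2 change from 5 to 8 DPA was -3.19, against 0.00914 for the 31944 genes with a 5 DPA mean at least that of the lowest member (called the genes of like level below). It was -3 or below for 115 members and -4 or below for 34, and 16 lay within 0.1 of the limit of -2.

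The words "shut down" fit a part of the members better than the rest. Measured without the added 0.5 CPM, the level left at 8 DPA was a median of 6.48% of that at 5 DPA. It was under 1% for 22 members and under 5% for 89, and at least 15% for 47. No member was without a count at 8 DPA, although 7 had no more than 3 counts over its libraries. At 11 DPA 14 members had no count and 42 had no more than 3.

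Edge values show how finely the limits cut. Csa12g081250, the last member by rank, averaged 5.384 CPM at 5 DPA, and Csa07g033820, the first gene left out, averaged 5.369 CPM. On the limit of the first step, Csa14g035010 was kept at a log2 change of -2.021 and Csa12g051540 was not at -1.999. For the second step Csa11g066240 was kept at -0.498 and Csa09g098740 left out just below -0.5, while Csa02g007600 was kept at 0.491 and Csa12g031790 left out at 0.510. In the value each limit was set on, neighbours across it were thus close together.

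The 6 members of highest 5 DPA mean split into an even and an uneven set. Csa09g086550 had 211, 221 and 184 CPM at 5 DPA, 47.3, 45.4 and 32.3 at 8 DPA, and 30.0, 31.2 and 28.4 at 11 DPA. Csa15g058510 had 94.1, 104 and 123 CPM at 5 DPA, 28.8, 26.2 and 21.7 at 8 DPA, and 44.1, 27.6 and 26.1 at 11 DPA. Both kept a sizeable level: 20.3% and 23.8% of the 5 DPA mean was left at 8 DPA. Csa00382s230, whose ID carries a scaffold number in place of a chromosome, had 83.9, 99.5 and 113 CPM at 5 DPA, 7.91, 6.204 and 7.37 at 8 DPA, and 4.63, 5.16 and 6.30 at 11 DPA. In these 3 genes every 5 DPA library lay above every later one, and the 5 DPA replicates differed by at most 1.35-fold.

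The other 3 of the 6 drew most of their 5 DPA mean from replicate 2. Csa13g048910 had 50.6, 432 and 76.1 CPM at 5 DPA, 23.6, 25.3 and 29.2 at 8 DPA, and 9.73, 16.3 and 34.8 at 11 DPA. Csa12g084210 had 36.8, 206 and 49.7 CPM at 5 DPA, 13.7, 14.7 and 4.42 at 8 DPA, and 15.7, 13.8 and 12.4 at 11 DPA. Csa07g046720 had 57.0, 174 and 43.9 CPM at 5 DPA, 18.4, 16.2 and 7.08 at 8 DPA, and 9.18, 13.9 and 9.08 at 11 DPA. Every 5 DPA library was again above every later one, but the size of the fall rested on replicate 2. Without that library the ratio of the 5 to the 8 DPA mean was 2.44 in place of 7.16 for Csa13g048910, 3.95 in place of 8.91 for Csa12g084210 and 3.63 in place of 6.58 for Csa07g046720, and none of the 3 would have met the limit of -2 (log2 changes of -1.27, -1.94 and -1.82).

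**Figure D2:**
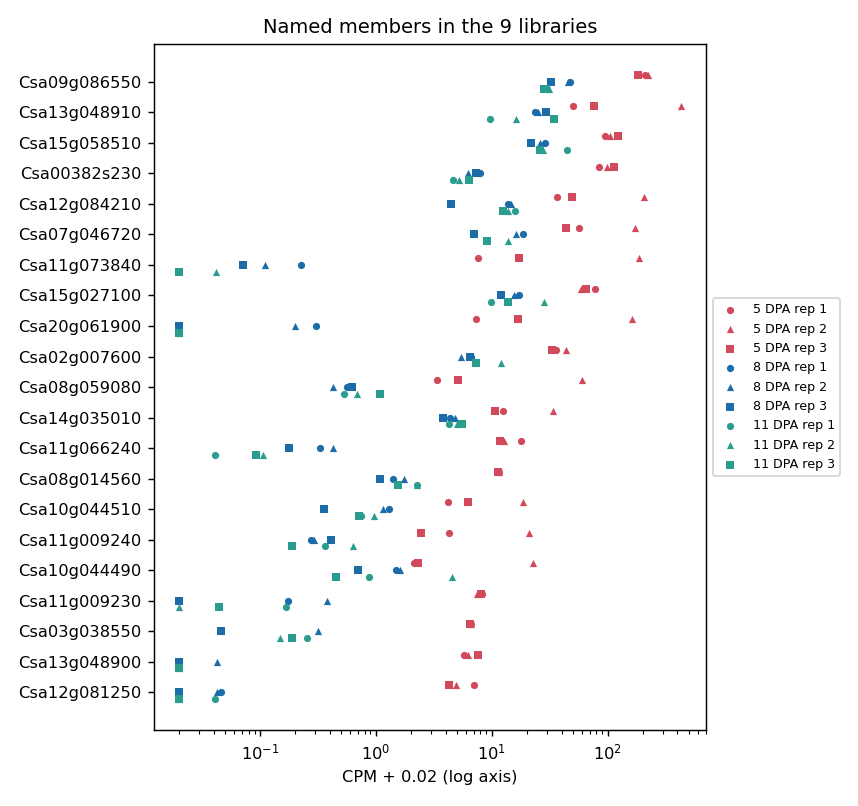
CPM of the 21 named members in the 9 libraries on a log axis (0.02 CPM added), with colour for age and marker for replicate, ordered by 5 DPA mean from the top. In Csa08g014560 and Csa03g038550 the 5 DPA markers coincide, while in Csa11g073840 and Csa08g059080 the triangle of replicate 2 stands alone at the right.

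Ranking by counts favours long genes, so levels were also set per kb of deposited gene length. Per kb, Csa15g027100 (0.369 kb, 181 CPM per kb at 5 DPA) and Csa13g048910 (1.06 kb, 175 CPM per kb) were the highest members, and the median member had 7.89 CPM per kb. Csa15g027100 had 77.5, 58.7 and 64.4 CPM at 5 DPA, 17.2, 15.6 and 12.1 at 8 DPA, and 9.86, 28.2 and 13.9 at 11 DPA. It was even at 5 DPA, and its 11 DPA libraries straddled those of 8 DPA. Of the 20 highest members by CPM and by CPM per kb, 8 were in both sets, and 152 of the 200 would have been kept had the rank been per kb.

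With 0.5 CPM added, Csa11g073840 and Csa20g061900 had the most negative log2 changes from 5 to 8 DPA, -6.84 and -6.59, and this rank rested on 5 DPA replicate 2. Csa11g073840 had 14 counts in the 3 libraries of 8 DPA and 1 at 11 DPA, and Csa20g061900 had 19 and none. Their 5 DPA CVs (SD over mean) were 1.43 and 1.40. With that library left out, the log2 changes were -4.38 and -4.26, against a median of -2.66 over the members. The most negative was then that of Csa12g078220, named after its values were seen, at -5.59 with 7 counts at 8 DPA.

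The members' 5 DPA replicates differed more among themselves than those of most genes of like level. The coefficient of variation (CV) had a median of 0.280, against 0.0859 for the genes of like level. Counting error alone would give a median of 0.0555 and 0.0520 in the same sets. The ratio of the highest to the lowest 5 DPA library was under 1.5 for 81 members, from 1.5 to 4 for 65 and over 4 for 54, that is 40.5%, 32.5% and 27.0%. Among the genes of like level these shares were 91.4%, 7.79% and 0.767%. The same mean chose the members, and a single high library raises it, so the members' excess of uneven genes is a description and was not tested.

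The spread had a direction. Replicate 2 was the highest 5 DPA library for 101 members, replicate 1 for 80 and replicate 3 for 19, or 50.5%, 40.0% and 9.50%. For the genes of like level the shares were 27.1%, 37.6% and 35.3%. Among the 54 members with a ratio over 4, replicate 2 was the highest in 52, at a median of 5.78 times the mean of the other 2 libraries, and it supplied 72.0% of their summed 5 DPA CPM. In the remaining 146 members it supplied 36.7%. In 38 of the 54, replicates 1 and 3 were within 2-fold of each other. From the first runs alone replicate 2 was also the highest in 52, and the 2 runs of replicate 2 differed by a median log2 of -0.00992 over these genes.

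**Figure D3:**
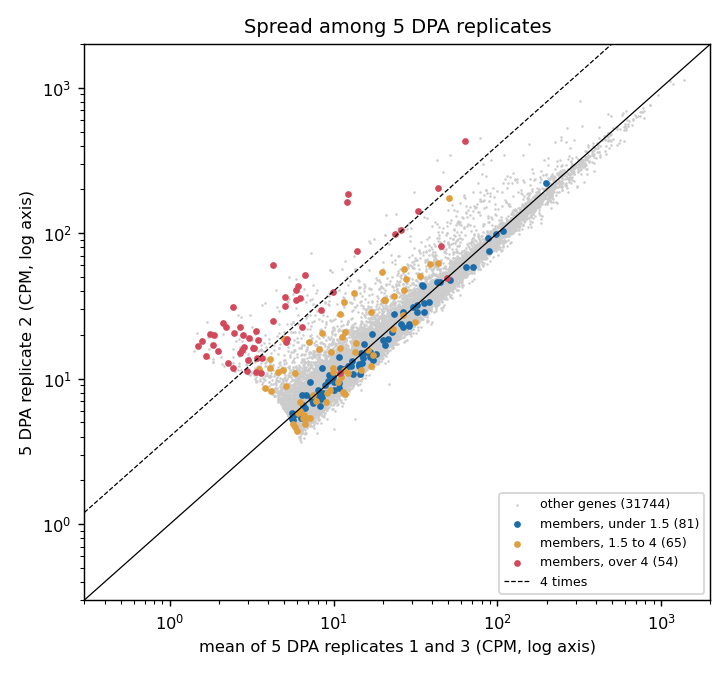
CPM in 5 DPA replicate 2 against the mean of replicates 1 and 3 (log axes) for the 31944 genes of like level, with members coloured by the ratio of their highest to lowest 5 DPA library. The solid line marks equal levels and the dashed line 4 times; most members over 4 gather near or above the dashed line, and few genes lie far below the solid one.

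The exceptions among the uneven members were Csa11g036930 and Csa12g024660, named after their values were seen. Csa11g036930 had 78.7, 49.1 and 19.1 CPM in 5 DPA replicates 1, 2 and 3, and Csa12g024660 had 20.4, 10.9 and 1.47 CPM. Both were highest in replicate 1 and lowest in replicate 3. The largest CV belonged to Csa11g073840 (1.43) and Csa08g059080 (1.41). Csa08g059080 had 3.39, 60.04 and 5.14 CPM at 5 DPA, 0.541, 0.408 and 0.601 at 8 DPA, and 0.512, 0.675 and 1.06 at 11 DPA. Without replicate 2 its log2 change from 5 to 8 DPA was -2.23 in place of -4.52.

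At the other end, Csa03g038550 and Csa08g014560 had the smallest CV, 0.00911 and 0.00941. Csa03g038550 had 6.58, 6.62 and 6.50 CPM at 5 DPA, 0.0258, 0.294 and 0.0261 at 8 DPA, and 0.235, 0.131 and 0.169 at 11 DPA. Csa08g014560 had 11.5, 11.6 and 11.4 CPM at 5 DPA, 1.39, 1.72 and 1.07 at 8 DPA, and 2.24, 2.24 and 1.52 at 11 DPA. Both CVs were below what counting error gives (0.0754 and 0.0570).

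How much of the fall depended on 5 DPA replicate 2 followed the spread. This was partly built in, since the same libraries set the spread classes and replicate 2 was the highest in 52 of the 54 uneven members. With that library left out, 78 of the 81 even members, 54 of the 65 in the middle class and 25 of the 54 uneven members still had a log2 change of -2 or below, 157 in all. The median log2 change was then -3.20 for the even and -1.94 for the uneven members. The mean of 5 DPA replicates 1 and 3 was above that of 8 DPA in all 200, with the smallest log2 change, -0.161, in Csa12g029470. In 198 members the lowest 5 DPA library still exceeded the highest 8 DPA library, which held for 27.8% of the genes of like level. The 2 exceptions were Csa12g024660 and Csa12g029470, named after their values were seen. Csa12g029470 had 1.60, 20.2 and 1.90 CPM at 5 DPA, 1.55, 1.61 and 1.39 at 8 DPA, and 1.81, 1.98 and 2.54 at 11 DPA. It is a member through 1 library: its other 5 DPA libraries lay within the range of the later ages.

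Genes were also fitted with edgeR's quasi-likelihood F-test over all 63017 genes that passed a filter on low counts, and called at a Benjamini-Hochberg adjusted p under 0.05. All 200 members passed the filter. At 8 versus 5 DPA 199 were called lower, against 17.5% of all genes tested. At 11 versus 5 DPA 198 were called lower, against 29.1%. The rule set limits on the steps from 5 to 8 and from 8 to 11 DPA, which together bound the change from 5 to 11 DPA, so these counts only describe it. The member not called at 8 versus 5 DPA was Csa10g044490 (edgeR adjusted p = 0.0595), and at 11 versus 5 DPA Csa10g044490 and Csa12g029470 were not called (edgeR adjusted p = 0.0858 and 0.0663). With 5 DPA replicate 2 left out, Csa12g029470 and Csa09g060040 were not called at 8 versus 5 DPA either (edgeR adjusted p = 0.377 and 0.0943), nor were Csa09g060040 and Csa10g028570 at 11 versus 5 DPA (edgeR adjusted p = 0.106 and 0.065). In that fit the log2 change of Csa12g029470 at 11 versus 5 DPA turned to 0.274. Csa09g060040 and Csa10g028570 were named after their values were seen. Csa10g044490 had 2.11, 22.8 and 2.29 CPM at 5 DPA, 1.47, 1.61 and 0.679 at 8 DPA, and 0.854, 4.49 and 0.435 at 11 DPA.

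In the step from 8 to 11 DPA, members with at least 1 CPM at 8 DPA kept closer ratios than those under 1 CPM, as the window of the rule allows. At 11 versus 8 DPA 23 members were called lower and 5 higher, together 28 of 200, against 40.5% of all genes called in either direction. The rule kept genes with small changes here, so nothing is read from that gap. For the 89 members with at least 1 CPM at 8 DPA the ratio of the 11 to the 8 DPA mean had a median of 0.954 and ran from 0.597 to 1.57. For the 111 under 1 CPM the median ratio was 0.508, and it was under 0.5 in 55 and above 2 in 1. With 0.5 CPM added to each mean, the window allowed wider ratios at such low levels. At the lowest of them even a fall to no count stayed within it. The lowest 8 DPA mean among genes of like level that met the first limit and fell below the window was 0.22 CPM. The lower quartile of the members' 8 DPA means was 0.186 CPM. Csa09g098740, just left out, had means of 0.239 CPM at 8 DPA and 0.0226 CPM at 11 DPA. For the members under 1 CPM, "level" thus means mainly that both means were small.

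Of the 23 members called lower at 11 DPA, 21 had under 1 CPM at 8 DPA. Csa07g026070, Csa11g024110 and Csa09g066220, named after their values were seen, had no count at 11 DPA and 23, 18 and 17 counts at 8 DPA (edgeR adjusted p = 0.0048, 0.00628 and 0.00659). Csa11g066240, the gene at the lower limit of the window, had 8 counts at 11 DPA and 36 at 8 DPA (edgeR adjusted p = 0.00963). The remaining 2 were Csa11g035070, also named after its values were seen, at 2.24 CPM in 11 DPA seeds and 3.22 CPM in 8 DPA seeds, and Csa09g086550, the most abundant member, at 29.9 CPM in 11 DPA seeds and 41.7 CPM in 8 DPA seeds (edgeR adjusted p = 0.0409 and 0.0495). Those called higher included Csa02g007600, at 8.88 CPM in 11 DPA seeds and 6.17 CPM in 8 DPA seeds (edgeR adjusted p = 0.0357), and Csa08g014560, at 2.002 CPM in 11 DPA seeds and 1.39 CPM in 8 DPA seeds (edgeR adjusted p = 0.0457). The calls in both directions depended on the fit and on single libraries. Fitted on those ages alone, 132 members passed the filter, 1 was called lower and 1 higher, and with the first run alone 10 were called lower and 0 higher. Without 8 DPA replicate 1 or 2 the count of lower calls was 10, without 11 DPA replicate 1 it was 14, and without 11 DPA replicate 2 or 3 it was 15. The count of higher calls was 0 without 8 DPA replicate 1 or 3, 1 without 5 DPA replicate 1, 2 without 11 DPA replicate 1 or 2, and 3 without 5 DPA replicate 2.

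**Figure D4:**
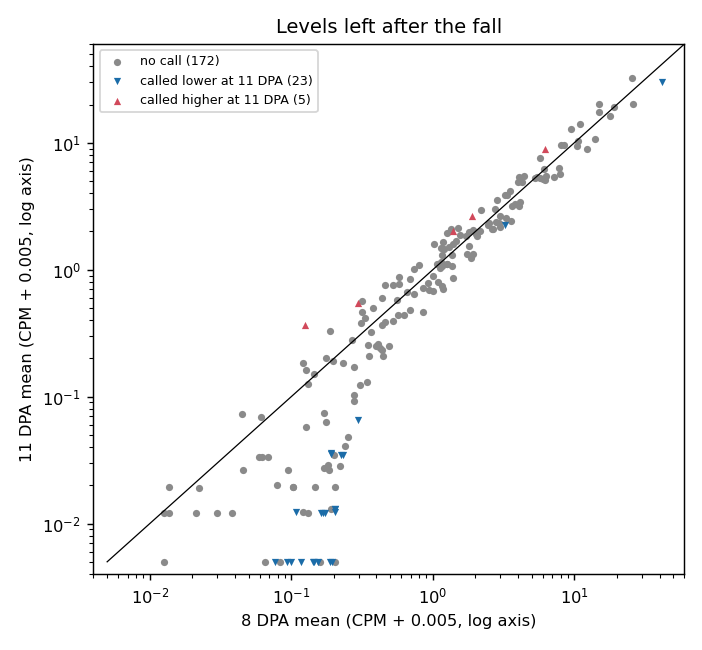
Mean CPM at 11 DPA against mean CPM at 8 DPA for the 200 members on log axes, with 0.005 CPM added so that zeros are shown. Points lie along the line of equality above about 1 CPM and drop below it at lower levels, where most of the 23 genes called lower lie.

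Within 8 DPA, replicate 3 tended to be the lowest. Among the 89 members with at least 1 CPM it was the lowest of the 3 libraries in 71 (79.8%), against 38.9% of the genes of like level. Among genes of like level that also fell by 8 DPA, it was the lowest in 96.4% of those that fell on to 11 DPA and in 51.1% of those that came back. In the 89 members its level had a median of 0.728 times the mean of replicates 1 and 2, against 1.00 in the genes of like level. At 11 DPA replicate 3 was the lowest in 34 of 87 members (39.1%), against 22.7% of the genes of like level, a smaller gap. Without 8 DPA replicate 3, 148 of the 200 members would still have been candidates. The part of that library in the fall at 8 DPA was not tested further.

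The rule was next applied with each replicate number left out, and the 200 genes it then gave were read in the 3 libraries not used. With number 2 left out, the median log2 change from 5 to 8 DPA was -3.01 in the unused libraries and -3.06 in those used, all 200 genes were below 0 and 171 were at -2 or below. With number 3 left out the medians were -2.55 and -3, with 200 genes below 0 and 144 at -2 or below. With number 1 left out they were -2.20 and -3.17, with 199 genes below 0 and 119 at -2 or below. These lists shared 138, 124 and 146 genes with the members for numbers 1, 2 and 3, so they are no check of the members as such. In each list the median log2 change was below 0 in libraries that had no part in its choice. It was closest to 0 in replicate number 1, and the cause was not tested. The median over genes of like level was near 0 in each unused set (0.00359, 0.0184 and 0.0182 for numbers 1, 2 and 3). For the second step, 99, 94 and 156 of the 200 stayed within the window of 0.5 in the unused libraries, and 60, 81 and 112 met both limits there. Over all libraries, the genes of like level had quartiles of -0.366 and 0.116 for this step. Most of them thus lay within the window too, and nothing is read from the counts for the second step.

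**Figure D5:**
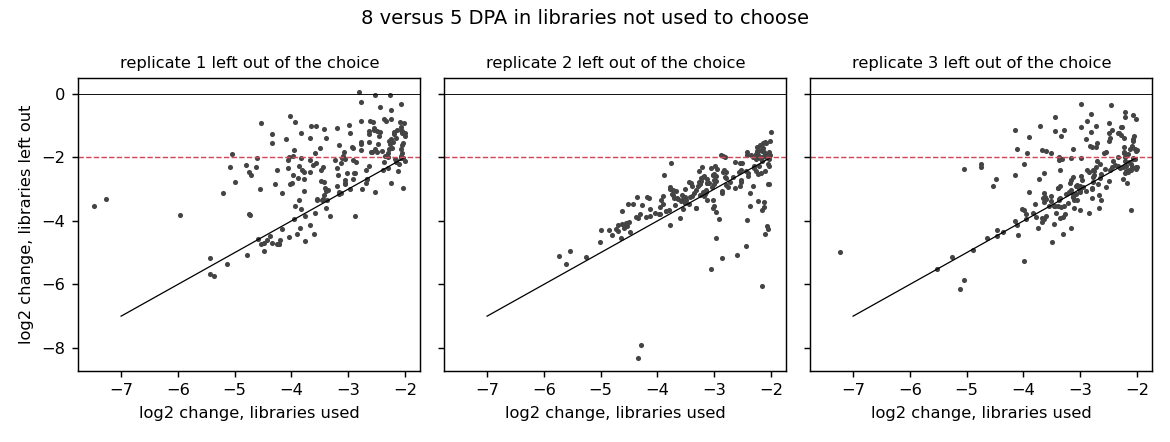
Log2 change from 5 to 8 DPA in the libraries left out of the choice (vertical) against that in the libraries used (horizontal), for the 200 genes chosen without replicate number 1, 2 or 3. Medians in the unused libraries were -2.20, -3.01 and -2.55; the dashed line marks the limit of -2 and the diagonal equality.

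Members were spread over the genome. Of the 199 with a chromosome number in the ID, chromosome 11 held 20, chromosome 12 held 16 and chromosome 9 held 15, while chromosome 18 held 3. Relative to the genes of like level on each chromosome, the share ran from 0.267% on chromosome 18 to 1.08% on chromosome 12, and was 0.792% on chromosome 11, which has 2526 such genes. The members' median gene length was 1950 bases, against 2590 bases for the genes of like level, and 99 of the 200 were on the plus strand.

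Neighbouring IDs were rare. Only 3 pairs lay on the same chromosome with ID numbers at most 50 apart, and each pair shared its strand. On chromosome 13 Csa13g048900 stood beside Csa13g048910: it had 5.75, 6.24 and 7.62 CPM at 5 DPA, 1 count in all at 8 DPA and none at 11 DPA, and lacked the excess in replicate 2. The next ID, Csa13g048920, fell on and is no member, with means of 482, 16.7 and 2.73 CPM at 5, 8 and 11 DPA. All 3 consecutive IDs were lower at 8 than at 5 DPA, at very unlike levels.

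On chromosome 10 both members of the pair had the excess. Csa10g044510 had 4.21, 18.6 and 6.19 CPM at 5 DPA, 1.29, 1.13 and 0.340 at 8 DPA, and 0.725, 0.937 and 0.700 at 11 DPA, beside Csa10g044490 above. Their neighbour Csa10g044480 also fell on, with means of 52.4, 4.88 and 1.90 CPM. On chromosome 11 the pair differed: Csa11g009230 was even, with 8.24, 7.44 and 8.00 CPM at 5 DPA, and Csa11g009240 was not, with 4.28, 21.1 and 2.45 CPM. At 8 DPA both were near nothing, with means of 0.172 and 0.307 CPM. Adjacent genes can be near-identical copies whose reads the counting may share, so these values are uncertain as separate levels.

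Set beside the other genes of like level that met the same limit at 8 DPA, the members were the middle course only after 8 DPA, as the rule fixed. Genes that met the same limit at 8 DPA but fell by more than 0.5 on the log2 scale afterwards numbered 592, and 73 came back by more than 0.5. The level left at 8 DPA had a median of 6.48% of the 5 DPA level for the members, 12.1% for those that fell on and 12.2% for those that came back. At 11 DPA the medians were 6.42%, 1.02% and 38.1%. The gap at 8 DPA is partly built in, since a gene with next to nothing left there could not fall out of the window. The sets also differed at 5 DPA, with median levels of 11.5, 20 and 13.1 CPM in the same order. A ratio over 4 among 5 DPA libraries was found in 27.0% of the members, 11.8% of those that fell on and 26.0% of those that came back, so uneven genes were not seen in the members alone. These differences were not tested, since the rule fixed the sets.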

How the data were processed

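Per the labels' protocols, poly(A) RNA of seeds was made into strand-marked libraries. The deposited table holds whole-number counts per gene and sequencing run. Tools listed without roles, per the submitters' processing notes, are HISAT2 2.0.4, Bowtie2 2.3.4.1, Trimmomatic, FastQC and bcl2fastq 2.20.0. Not given in the sources used here are the counter, how it handled strand and multiply matching reads, and the build, so counts of near-identical copies are uncertain. The authors' gene length column (another kind of deposited value, in bases) was used only for levels per kb. Runs of a replicate were summed. CPM, means, SDs and CVs were computed from the summed counts in Python 3.11.15 with pandas 2.3.3; figures used Matplotlib 3.10.9.

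All genes were fitted by the quasi-likelihood test of edgeR 4.0.16 (R 4.3.3; filterByExpr, then TMM; the 3 ages together, without covariates; Benjamini-Hochberg adjustment over every gene tested), and the fit was tested on simulated data. Alternatives were DESeq2 1.42.0 and its size factors, no filter, the 2 ages compared alone, the replicate number as a block, each library left out, the first run alone, and other settings of the rule. Per-class counts in the alternatives and the genome-wide search for uneven genes were added after seeing the data.

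The members and the lists were chosen with earlier results of these data known. Genes are named for rank by 5 DPA mean or mean per kb, largest or smallest CV, largest fall, highest 8 DPA mean, neighbouring IDs and closeness to a limit; others are said to be named after their values were seen. Peak lists were not used here.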

Additional observations from a re-analysis of the deposited data

How the results depend on the processing

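The replicate numbers showed no sign of pairing the libraries. Correlations of same-numbered libraries' deviations from their age means ran from -0.068 to 0.183. For differently numbered libraries they ran from -0.176 to 0.199. With the number as a block 198 members were called lower at 8 versus 5 DPA, 22 at 11 versus 8 DPA and 199 at 11 versus 5 DPA. The log2 change at 8 versus 5 DPA kept its sign in the 21 members named by rule. This held with TMM scaling, medians over replicates, the first run alone and each library left out. These genes were chosen for a change of -2 or below in the same libraries, so little is read from a kept sign. Without 5 DPA replicate 2 the limit of -2 was missed by Csa10g044490 (-0.623), Csa13g048910 (-1.27), Csa14g035010 (-1.33), Csa07g046720 (-1.82) and Csa12g084210 (-1.94). The other members named by rule still met it there. The log2 change of Csa12g029470 at 11 versus 5 DPA turned to 0.274 without 5 DPA replicate 2. Leaving out each library gave 191 to 200 members called lower at 8 versus 5 DPA, 10 to 33 at 11 versus 8 DPA and 196 to 200 at 11 versus 5 DPA. For 11 versus 8 DPA the count was 10 without 8 DPA replicate 1 or 2, 14 without 11 DPA replicate 1, and 15 without 11 DPA replicate 2 or 3. It was 1 on the 2 ages alone, where 132 members passed the filter, and 10 with the first run alone. Members called higher at 11 versus 8 DPA, 5 in all, ranged from 0 to 6 without single libraries and were 0 with the first run alone and 1 on the 2 ages alone. DESeq2 gave 4 members no adjusted p and called the other 196 lower at 8 versus 5 DPA. The list itself moved more. The candidates numbered 641 with 0.1 CPM added and 664 with a window of -1 to 1, which kept 128 and 110 of the members among the 200 highest, and ranking and limits on medians over replicates kept 126. Without single libraries there were 304 to 492 candidates and 146 to 181 members kept, the lowest candidates and members kept coming without 5 DPA replicate 2. The median log2 change of the lists chosen without replicate number 1, 2 or 3 was -2.20, -3.01 and -2.55 in the unused libraries and -3.17, -3.06 and -3 in those used, against -3.19 for the members, which these lists share in part. The cause of these shifts was not tested. Members at or under 3 counts cannot be ordered at this depth.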

Other observations

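Genes high in 5 DPA replicate 2 were sought in the whole table, a search chosen after the members' values were seen. Of the 31944 genes of like level, 127 had more than 4 times the CPM of each other 5 DPA library in replicate 2, none did in replicate 1 and 2 did in replicate 3. Of the 127, 33 were members, 37 fell by 8 DPA and fell on, and 12 fell and came back. Those with a log2 change of -2 or below at 8 DPA numbered 82, against 2.71% of the genes of like level. A high replicate 2 raises the 5 DPA mean behind that change and behind the choice by level, so this overlap is partly built in. Measured against 5 DPA replicates 1 and 3 alone, the log2 change of the 127 at 8 DPA had a median of -1.15, and 28 were at -2 or below, where 2.38% of the genes of like level were. The 2 genes high in replicate 3 were not among those that fell by 8 DPA.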
